A study of Mus musculus with 37 samples.

Results

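The 296 main ORFs described here begin fewer than 20 bases from the 5′ end of the listed transcript. They were taken from a list of 22367 translated open reading frames (ORFs) of mouse bone marrow-derived dendritic cells. In each gene family, on 1 chromosome and strand, the ORF with the most codons was called the main ORF, which gave 10418 main ORFs. The 8854 main ORFs of at least 100 and under 1500 codons that are coded by at least 2 exon blocks could be chosen, and 296 of them (3.34%) had a leader, the transcript bases before the start codon, of fewer than 20 bases. The other 8558 have leaders of 20 bases or more, and 660 of those have leaders of 20 to 42 bases.

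Bone marrow cells of C57BL/6J mice aged 6 to 8 weeks were cultured into dendritic cells, and LPS at 100 ng/mL or a mock treatment was given at day 9. RNA fragments of 28 to 34 nucleotides that ribosomes had protected from nuclease were sequenced in 37 libraries. With cycloheximide, which stalls elongating ribosomes, there were 16 LPS libraries, 8 mock libraries and 2 naive libraries, and with no inhibitor there were 8 LPS libraries and 1 naive library. LPS or mock treatment lasted between 0.5 and 12 h, at 8 time points, and 1 harringtonine and 1 lactimidomycin library, whose inhibitors hold ribosomes at start codons, came from mixed LPS times. The labels do not say which libraries share a mouse. The ORF list was made for all libraries together, so it gives each ORF 1 position and 1 score and no value per library, dose or time. Depth per library is therefore unknown, and no member was compared between LPS and mock cells. Of 16 dendritic cell marker genes, 14 have a listed ORF and none is a member. Of 7 macrophage and monocyte marker genes, 7 have a listed ORF, and so do 9 of 9 neutrophil markers, while 1 of 4 B cell markers and 1 of 4 T cell markers do. The list holds no levels, so the share of other cells in the cultures was not measured.

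In the usual route to a start codon, the small ribosomal subunit loads near the cap of the mRNA and scans the leader until it meets an AUG in a favourable context. A very short leader leaves little room for this search, and scanning ribosomes often pass an AUG that lies close to the cap. An element named TISU (translation initiator of short 5′ UTR) is known to direct efficient initiation on such mRNAs. It surrounds the start codon, its letters overlap the binding site of the transcription factor YY1, and it is known from genes of basic cell functions, those of mitochondria among them. Here its core was taken as GCGGC directly after the start codon, and the full element as the core together with its preferred bases before the start codon.

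The start sites shown were read from RefSeq gene-start windows (build GRCm38.p6) at the listed leader length, counted from the RefSeq gene start. Each runs 5′ to 3′ from the gene start through the leader and the start codon to 8 bases beyond it. The first set has the canonical start codon and the TISU core at the listed start, both in capitals, and shows what the core looks like behind leaders of different length. It holds the 8 members with the core and the highest scores, so the shared letters are the basis of the choice. Among them are genes of mitochondrial import (Timm44), the mitochondrial ribosome (Mrps18a), respiratory complex I (Ndufb5), tRNA thiolation (Urm1), endocytosis (Necap1), membrane fusion (Bnip1) and an F-box protein of ubiquitin ligases (Fbxo28).
Urm1: ggtttcctaaacATGGCGGCgcc
Necap1: agcggagccaagATGGCGGCaga
Timm44: cacacgggctcttccaacATGGCGGCggc
Fbxo28: ggaatcaaactcccaagATGGCGGCggc
Bnip1: gccgcatttccaacATGGCGGCtcc
Lrrc47: cacgggcggcgcgATGGCGGCggc
Mrps18a: aggtgcgttccaagATGGCGGCcct
Ndufb5: ttccgtggccggtgtagccATGGCGGCcat

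The second set has the canonical start codon, in capitals, without the core, and again holds the members with the highest scores. They are a translation initiation factor subunit (Eif3f), a catalytic proteasome subunit (Psmb5), an import channel subunit (Timm17a), a GTPase of large ribosomal subunit assembly (Gtpbp4) and an insertase of the mitochondrial inner membrane (Oxa1l).
Eif3f: ctctctttctcggcaagATGgcttctcc
Psmb5: aaacATGgcgctggc
Timm17a: gcgcgggttggagccaagATGgaggaata
Gtpbp4: gcgttccaccgccggcATGgcgcatta
Oxa1l: ctcttcccggcaagATGgcgaggaa

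The third set has CTG, in capitals, at the listed start. Of the 12 members with CTG there, it shows the pair with the highest and the pair with the lowest scores. In Galc the frame read from this CTG meets a stop codon within the window, so the site shown is not the start of its listed ORF.
Galc: aacagcggCTGcgcggaca
Papd7: ccgtcgCTGtcgtcgtc
Sdf2l1: agagctggattggccgCTGttgaggac
Mblac2: gagagtagctcctccggctCTGcagcaaca

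In the list's own build, mm9, the first set includes Urm1 at chr2:29682921-29698691 on the plus strand, Necap1 at chr6:122824587-122837406 on the plus strand, Timm44 at chr8:4260136-4275887 on the minus strand and Fbxo28 at chr1:184247022-184271720 on the minus strand. The others of that set are Bnip1 at chr17:26918038-26929082 on the plus strand, Lrrc47 at chr4:153385925-153393985 on the plus strand, Mrps18a at chr17:46247967-46265598 on the plus strand and Ndufb5 at chr3:32636004-32650071 on the plus strand. Those of the second set are Eif3f at chr7:116077946-116085052 on the plus strand, Psmb5 at chr14:55233029-55236828 on the minus strand, Timm17a at chr1:137198495-137210296 on the minus strand, Gtpbp4 at chr13:8972368-8995242 on the minus strand and Oxa1l at chr14:54980539-54988135 on the plus strand. Those of the third set are Galc at chr12:99442151-99497539 on the minus strand, Papd7 at chr13:69638794-69672736 on the minus strand, Sdf2l1 at chr16:17130600-17132460 on the minus strand and Mblac2 at chr13:81850435-81889345 on the plus strand. All spans run over coding exons and the introns between them.

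Members spread over the whole range of leaders that the rule allows, with a peak at each end of a thin stretch. No leader at all was listed for 23 members, whereas 3, 4, 5 and 5 members had leaders of 1, 2, 3 and 4 bases. Leaders of 0 to 9 bases were found in 101 members and leaders of 10 to 19 bases in 195. At the edge of the rule, 19 main ORFs had leaders of 19 bases and 21 had leaders of 20 bases. Just inside lay Tbc1d13, which acts on Rab GTPases (score 990), Mrpl32 (986) and Ndufb5 (969). Just outside lay the lysosomal peptidase gene Tpp1 (991) and the mitochondrial ribosomal protein gene Mrps10 (982).

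The score is the authors' own whole number per ORF, runs from 500 to 991 in the list and is used here only to rank ORFs within it. Its median was 931.5 in members (95% interval 917 to 944) and 931 in the main ORFs with longer leaders (928 to 935). A score of 900 or more was given to 181 of 296 members, or 61.1% (exact Clopper-Pearson 95% interval 55.3 to 66.7), against 58.7% of the rest (57.6 to 59.7). Intervals in this text cover counting error only. Members at the top of the range include Psmb1, a proteasome core subunit (991), the cytosolic ribosomal protein gene Rpl11 (991) and the histone deacetylase gene Hdac1 (990). They also include Gusb, the lysosomal beta-glucuronidase (987), and Adh5, an alcohol dehydrogenase that also acts in formaldehyde removal (987). These genes serve protein turnover, protein synthesis, chromatin and metabolism. No RefSeq window was found for Psmb1 and Hdac1, and those of Rpl11, Gusb and Adh5 have no canonical start codon at the listed start.

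**Figure D1:**
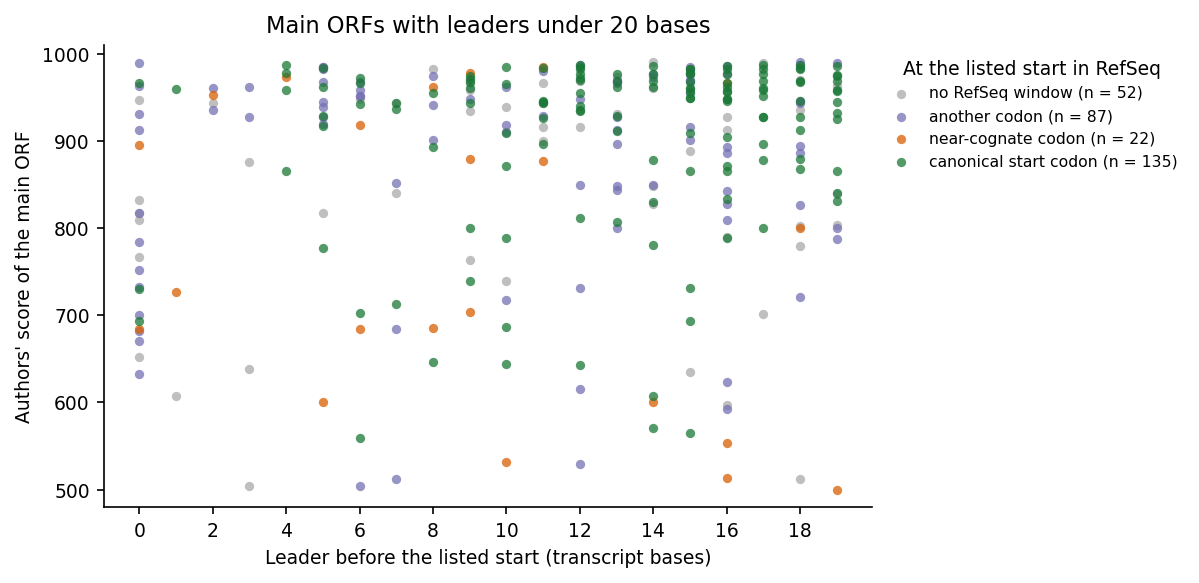
Authors' score of each of the 296 members (vertical axis) against its listed leader in transcript bases (horizontal axis), with 1 point per main ORF, coloured by the codon found in RefSeq at the listed leader length. Members with no leader have a median score of 784, those with leaders of 1 to 19 bases 939, and the 135 members with the canonical start codon have a median of 948.

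The 23 members with no listed leader had lower scores than the other members. Their median score was 784 (95% interval 700 to 895), against 939 (927 to 946) for the 273 members with leaders of 1 to 19 bases. Another listed transcript carried the same start behind a longer leader in 8 of the 23 (34.8%, 16.4 to 57.3), against 34 of 273 (12.5%, 8.78 to 17.0), and these intervals overlap. No bases after the stop codon either were listed for 3 of the 23, against 1 of the 273. The gene of the RNA helicase Dhx29, which helps ribosomes scan structured leaders, is one of these, with a leader of 0 bases, a trailer of 0 bases and a score of 967. Cd44, the hyaluronan receptor, scored highest among members with no leader (989). It has a splice variant, also scored 989, whose transcript carries the same start behind 319 bases.

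Members had fewer codons and shorter trailers than the rest. Their median length was 379 codons (353 to 422), against 449 (441 to 457) in main ORFs with longer leaders. With the limit moved to leaders under 50 bases, the median of those 1137 main ORFs was 370 codons (355 to 391). The lower codon number was therefore not particular to leaders under 20 bases. The median trailer, the bases after the stop codon, was 709 (528 to 815) in members and 1124 (1090 to 1162) in the rest. The number of coding exon blocks did not differ in its median, at 9 in members and 9 in the rest. The first coding block had a median of 109 bases in members (97 to 125) and 102 in the rest (100 to 105). The smallest member is Urm1 (101 codons), a ubiquitin-like protein that carries sulfur for tRNA modification. The largest is Lphn2 (1461 codons), an adhesion G protein-coupled receptor, which has no listed leader and a score of 693. Its start lies behind 1051 bases on another listed transcript.

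Short leaders did not always hold on every transcript of a gene. Another listed transcript held the member's start with a longer leader in 42 of 296 members (14.2%, 10.4 to 18.7), against 8.73% of the rest (8.14 to 9.35). The added leader had a median of 40.5 bases in these 42 members, with quartiles of 13.25 and 112.25 bases. It was 1 base in Med4, a Mediator subunit of RNA polymerase II transcription, and 1340 bases in Gp49a, a paired immune receptor gene. In Psmb5 it was 18 bases, and in Tbc1d13 114 bases. The span of Gp49a holds 1 ORF of 303 codons (score 910) and, farther along, 1 of 335 codons (score 988). Its main ORF and added leader therefore cannot be assigned to 1 gene copy. How many footprints came from each transcript is not given in the list.

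In most members that could be read, the canonical start codon lay exactly where the list places the start. A RefSeq window was found for 244 of 296 members, and 224 of these had a single window. At the listed leader length, ATG stood in 135 of 244 members (55.3%, 48.9 to 61.7), against 334 of 540 (61.9%, 57.6 to 66.0) main ORFs with leaders of 20 to 42 bases. Where a gene had several windows, 1 with ATG was taken first, and among those 1 with the TISU core. With single-window genes only, ATG stood in 56.25% of members, and the core followed it in 28.6%. At the 40 other positions within 20 bases of the listed start, ATG stood in 0.943% of member positions and 0.866% of positions in the longer leaders. This reading assumes that the listed transcript and the RefSeq gene begin at the same base. A window without ATG can therefore mean another start codon or another transcript start, and these cannot be told apart without the genome sequence of the list.

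**Figure D2:**
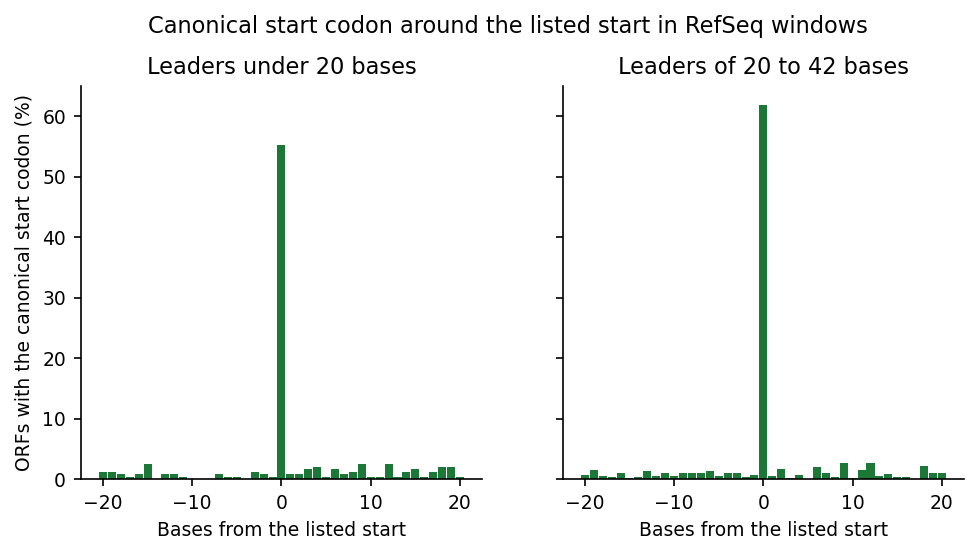
Share of ORFs with the canonical start codon (vertical axis, percent) at each base from 20 before to 20 after the listed start (horizontal axis), for the 244 members with a RefSeq window on the left and the 540 main ORFs with leaders of 20 to 42 bases on the right. The bar at 0 reaches 55.3% in members and 61.9% in the longer leaders, and no other position held the codon in more than 6 of the 244 members.

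ATG was found less often at the listed start behind the shortest leaders. It stood in 31 of 80 members with leaders of 0 to 9 bases (38.8%, 28.1 to 50.3), and in 104 of 164 members with leaders of 10 to 19 bases. The 31 were 3 of 17 members with no leader (17.6%, 3.80 to 43.4) and 28 of 63 with leaders of 1 to 9 bases (44.4%, 31.9 to 57.5). Codons that differ from ATG at 1 base, called near-cognate, stood at the listed start in 22 of 244 members (9.02%, 5.74 to 13.3) and in 47 of 540 longer leaders (8.70%, 6.47 to 11.4). A start that holds ATG cannot hold one of these codons, so their share was also taken over starts without ATG. It was then 22 of 109 in members (20.2%, 13.1 to 28.9) and 47 of 206 in the longer leaders (22.8%, 17.3 to 29.2). Surrounding positions without ATG held a near-cognate codon at 12.7% in members and 12.6% in the longer leaders. These positions were counted over every window of a gene, so the shares are not strictly alike. By that count the listed start held one in 25 of 244 members and 51 of 540 longer leaders. Single surrounding positions varied, between 15 and 53 of the 244 members. CTG, the near-cognate codon most used for initiation in mammals, was found in 12 of the 22 members with such a codon. Within the window and first coding block, the frame from the listed start held no stop codon in 134 of 135 members with ATG. It held none in 19 of 22 with a near-cognate codon and in 63 of 87 with another codon. In leaders of 20 to 42 bases the counts were 333 of 334, 43 of 47 and 134 of 159. Where a stop stood in that frame, the window does not show the start of the listed ORF.

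The TISU core followed the canonical start codon in 37 of 135 members (27.4%, 20.1 to 35.7). In main ORFs with leaders of 20 to 42 bases it followed in 59 of 334 (17.7%, 13.7 to 22.2), so the intervals overlap, and the difference was not tested. The higher share lay in leaders of 10 to 19 bases, at 33 of 104 (31.7%, 22.9 to 41.6), and leaders of 0 to 9 bases gave 4 of 31 (12.9%, 3.63 to 29.8). Leaders of 20 to 29 bases gave 18.0% (11.9 to 25.6) and leaders of 30 to 42 bases 17.4% (12.4 to 23.4). The full element was found in 14 of 135 members (10.4%, 5.79 to 16.8), against 23 of 334 longer leaders (6.89%, 4.42 to 10.2). Of the sites printed above, Necap1, Timm44, Fbxo28, Bnip1 and Mrps18a have the full element, while Urm1, Lrrc47 and Ndufb5 have the core alone.

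As a background for these letters, ATG followed by GCGGC was searched in every RefSeq window. On the sense strand it stood within the 50 bases after the gene start in 304 of 32851 windows (0.925%). In windows of members it stood there in 50 of 270 (18.5%, 14.1 to 23.7). On both strands and over the whole 300-base window the shares were 21.5% for members and 2.24% for all windows. Part of this gap follows from the rule, because a member has a start codon close to its transcript start. A match is a description of letters and not a measured site of initiation.

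The bases that favour recognition of an AUG were common at member starts. An A or G stood 3 bases before the start codon in 119 of 131 members with ATG and enough leader (90.8%, 84.5 to 95.2), against 93.1% of the leaders of 20 to 42 bases (89.8 to 95.6). G directly after the start codon was found in 110 of 135 members (81.5%, 73.9 to 87.6), against 74.9% (69.8 to 79.4). The core itself begins with G, and without core members the share was 73 of 98. An A 3 bases before the start codon, one of the preferred TISU bases, stood in 26 of 36 members with the core and in 44 of 95 members without it.

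**Figure D3:**
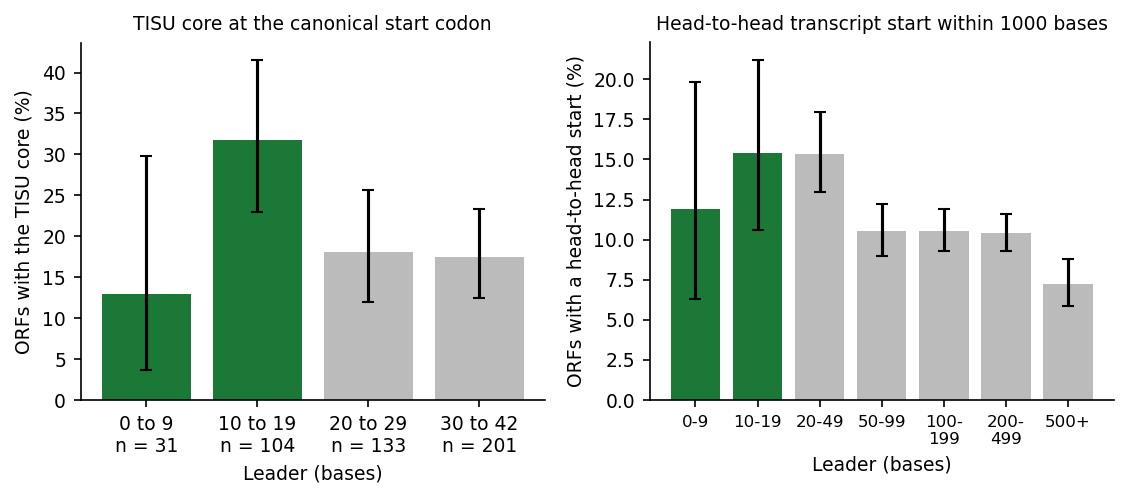
Left, share of ORFs with the canonical start codon at the listed start that carry the TISU core (vertical axis, percent), by leader length in bases, with members in green and longer leaders in grey; it is 31.7% at 10 to 19 bases and 12.9% at 0 to 9 bases. Right, share of main ORFs with an opposite-strand transcript start within 1000 bases, by leader length, at 15.4% for 10 to 19 bases and 7.26% for 500 bases or more; bars are shares and lines exact 95% Clopper-Pearson intervals.

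Mitochondrial ribosomal proteins build the ribosome inside mitochondria, and their genes held more short leaders than main ORFs as a whole. Of the 70 mitochondrial ribosomal protein genes that the rule could choose, 11 were members (15.7%, 8.11 to 26.4), against 3.34% of all 8854 main ORFs (2.98 to 3.74). This held at the limit of 20 bases, while under 10 bases the list gave 1 of 70 (1.43%), against 1.14% of all main ORFs. The median leader over these 70 genes was 70.5 bases, against 176 over all 8854. The members are Mrpl32 (score 986), Mrpl49 (985), Mrpl10 (970), Mrps18a (969), Mrps7 (962), Mrps18b (952), Mrpl9, Mrps30, Mrps27, Mrps18c and Mrps12. Their leaders ran between 6 bases in Mrps18b and 19 bases in Mrpl32. A RefSeq window was found for 11 of these, 6 had ATG at the listed start, and 4 of the 6 had the TISU core: Mrps18a, Mrpl9, Mrps30 and Mrps27. Cytosolic ribosomal protein genes, whose leaders are known for a pyrimidine tract at the cap, gave 1 member of 70, Rpl11.

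Aminoacyl-tRNA synthetases, which charge tRNAs with amino acids, gave 4 members of 34 (11.8%, 3.30 to 27.5). Wars2 (leader of 9 bases, score 971), Aars2 (13 bases, 911) and Yars2 (19 bases, 866) act in mitochondria, and Farsb (4 bases, 973) is a subunit of the cytosolic phenylalanine enzyme. Mitochondrial import and chaperone genes gave 3 of 22 (13.6%, 2.91 to 34.9). All 3 belong to the import machinery of the inner membrane: Timm17a (18 bases, 987), Timm44 (18 bases, 982) and Timm50 (14 bases, 962). The intervals of both the synthetase list and the import list include the share over all main ORFs, 3.34%.

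Oxidative phosphorylation genes of the nucleus gave 4 of 75 (5.33%, 1.47 to 13.1), close to the share over all main ORFs. They are the complex I subunits Ndufb5 (score 969) and Ndufb4 (961), the copper-loading assembly factor Cox11 (972) and Mnf1, a complex III assembly factor also known as Uqcc2 (878). All 4 had ATG at the listed start. Genes of RNA polymerases and general transcription factors gave 4 of 62, which were Polr2d (973), Taf8 (946), Taf5 (800) and Taf4a (730). Proteasome genes gave Psmb1 and Psmb5 of 46, and translation factors gave Eif3f (987) and Eif2s3x, a subunit of the initiator tRNA carrier (969), of 63.

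Lists of the immune response held 1 or 2 members each or none, and their shares can be read against 3.34% over all main ORFs. Cytokines and chemokines gave 1 of 41, the lymphotoxin beta gene Ltb, with a leader of 15 bases and a score of 565. Toll-like receptor and NF-kB signalling gave 1 of 45, Tab1, a partner of the kinase TAK1 (leader of 2 bases, score 943). The interferon-stimulated list gave 2 of 56: the guanylate-binding protein gene Gbp4 (512) and Parp2 (953), a DNA repair enzyme that entered the list through its name. Antigen presentation genes gave 0 of 25 (up to 13.7%), Rab and Arf GTPases 0 of 73 (up to 4.93%), core spliceosome genes 0 of 42 (up to 8.41%) and glycolytic enzymes 0 of 18 (up to 18.5%). C-type lectin and related receptors gave Gp49a of 26, lysosomal hydrolases Gusb of 46, ubiquitin-conjugating enzymes and cullins Uba2 of 45, and neutrophil genes Prtn3 of 12 (8.33%, 0.211 to 38.5). With so few members, no difference among these lists was detectable.

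**Figure D4:**
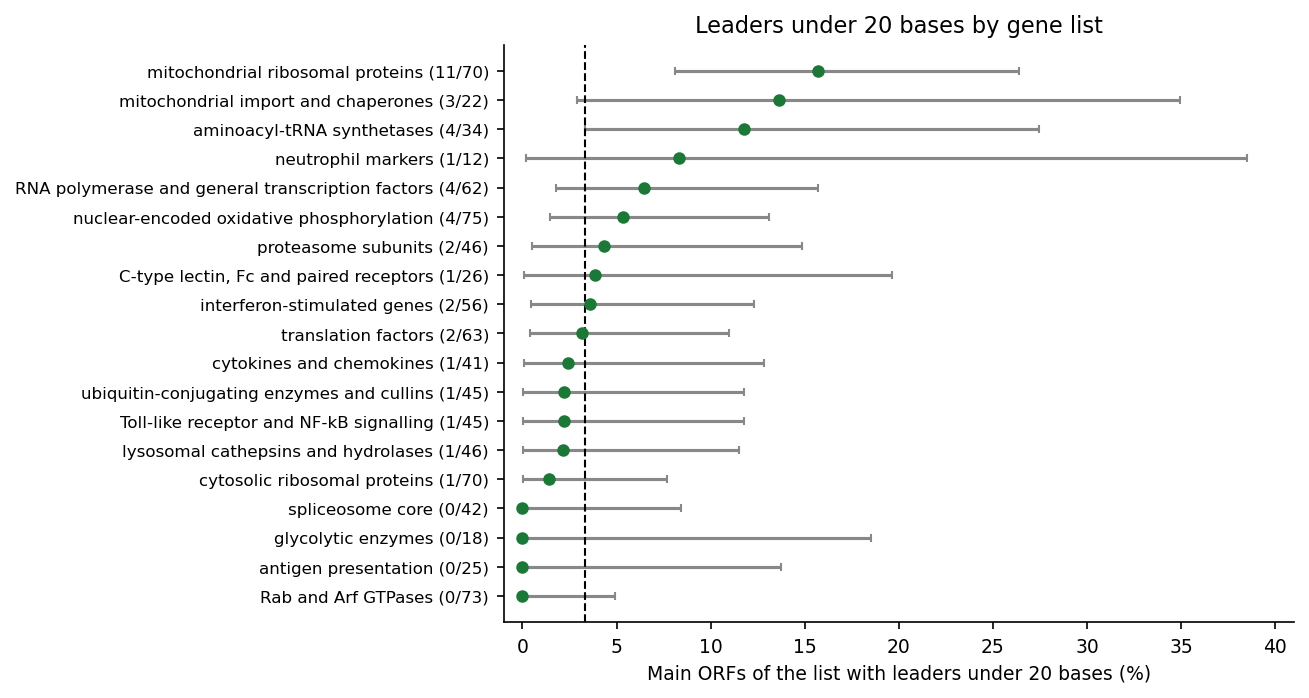
Share of the main ORFs of each of 19 gene lists that have leaders under 20 bases (horizontal axis, percent), with exact 95% Clopper-Pearson intervals as lines, members over eligible main ORFs in brackets and the share over all main ORFs, 3.34%, as a dashed line. Mitochondrial ribosomal proteins (15.7%) have an interval that lies wholly above the dashed line.

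Most members had no other ORF in their family. This held for 173 of 296 (58.4%, 52.6 to 64.1), against 43.1% of the rest (42.1 to 44.2). Part of this gap follows from the rule, because other ORFs include those upstream of or over the main start. Upstream ORFs were listed for 4 members (1.35%, 0.369 to 3.42), against 15.2% of the rest, but a leader under 20 bases leaves little room for one. The 4 lie outside the member's own leader, as in Lphn2, whose upstream ORF has 3 codons and sits on the transcript with 1051 bases before the start. In Uba2, a subunit of the enzyme that activates SUMO, the upstream ORF has 364 codons and lies on a transcript without the Uba2 start. Splice variants that share both ends of the main ORF were listed for 12.2% of members (8.67 to 16.4), against 18.9% of the rest (18.1 to 19.8).

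Another in-frame start was listed for 72 of 296 members (24.3%, 19.5 to 29.6), against 23.6% of the rest (22.7 to 24.5). Such ORFs, called inner here, share the stop codon and at least 1 coding base in the same frame with the main ORF. Their starts were not required to lie in a coding exon of the member. Some lie on transcripts that do not hold the main start, as in Oxr1. In 36 of the 72, the inner start scored higher than the main ORF. The 72 members had 113 inner ORFs, which began at 105 distinct genomic positions. Whether an inner start outscored the main ORF went with the codon read at the listed start. It did so in 6 of 135 members with ATG (4.44%, 1.65 to 9.42), in 9 of 22 with a near-cognate codon (40.9%, 20.7 to 63.6) and in 13 of 87 with another codon (14.9%, 8.20 to 24.2). The main ORFs of these classes had median scores of 948, 763.5 and 927, and a lower main score is more easily exceeded. Leaders of 20 to 42 bases gave 5.09%, 40.4% and 14.5% for the same codon classes, so the pattern was not particular to the short leaders. All these shares are taken over whole codon classes, so they mix the listing of an inner start with its score. An inner start of any score was listed for 21 of 135 members with ATG (15.6%). It was listed for 12 of 22 with a near-cognate codon (54.5%) and 27 of 87 with another codon (31.0%).

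Some members had a low score beside a high-scoring inner start. Of the 10 members with the lowest scores, 500 to 559, 9 had an inner start that scored higher, which a low main score makes likely. The main ORF of Lypla1, a protein depalmitoylase, has 236 codons and a leader of 3 bases and scored 504, whereas its inner ORFs of 230, 225 and 221 codons scored 937, 851 and 738. In Gnb2, a G protein beta subunit, the main ORF of 396 codons scored 529 and an inner ORF of 340 codons scored 966. Mapkapk2, a stress kinase that controls cytokine mRNAs, is a higher-scoring case, with 826 for the main ORF of 386 codons and 982 for an inner ORF of 349 codons. In each of these 3 genes the longest ORF defined the member, and a shorter ORF with the same stop codon had the higher score.

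Members with CTG at the listed start differed among themselves. Of these 12, an inner start scored higher than the main ORF in 7, an inner start scored lower in 2, and no inner start was listed in 3. Galc, the lysosomal galactosylceramidase (score 962), and Papd7, a noncanonical poly(A) polymerase (918), had no inner start. Mblac2 scored 500, against 833 for an inner ORF of 298 codons. Sdf2l1, a chaperone-associated protein of the endoplasmic reticulum, scored 513, against 737 for an inner ORF of 51 codons. Its other inner ORF, of 221 codons, scored 537. Smpdl3b scored 879, above its inner start at 859. Ccdc167 has ATG at the listed start and scored 559, against 980 for an inner ORF of 97 codons. Gbp4 spans several gene copies on chromosome 5, and its 10 other ORFs include 8 within its span that are not in-frame starts, so its ORFs cannot be assigned to 1 gene copy.

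**Figure D5:**
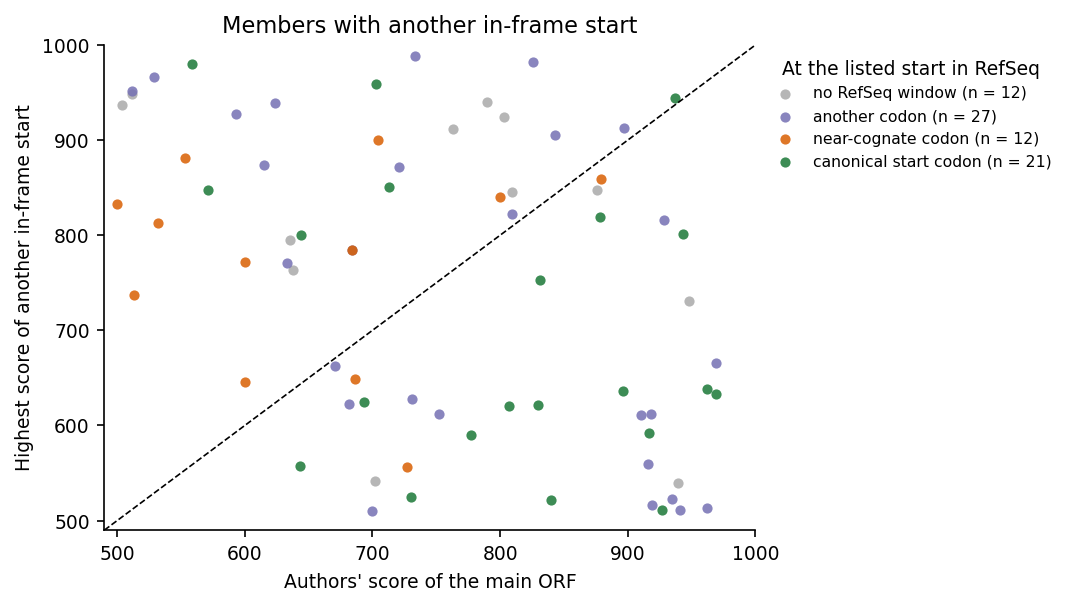
Highest score of another in-frame start (vertical axis) against the score of the main ORF (horizontal axis) for the 72 members that have one, coloured by the codon at the listed start, with the line of equal scores dashed. The 36 points above the line include 9 of the 12 near-cognate members and 6 of the 21 members with the canonical start codon.

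Some members lay head to head with another gene. A listed transcript start on the opposite strand lay within 1000 bases in 42 of 296 members (14.2%, 10.4 to 18.7), against 898 of 8558 in the rest (10.5%, 9.85 to 11.2). Main ORFs with leaders of 20 to 42 bases gave 14.4% (11.8 to 17.3), so the share was not particular to the shortest leaders. The median distance was 179.5 bases for members and 159 for the rest. In 6 of the 42 the partner was itself a member. Mrps27 and Ptcd2, both genes of mitochondrial RNA and protein synthesis, start 108 bases apart (scores 927 and 974). Rpusd4, a mitochondrial pseudouridine synthase, lies opposite Fam118b, and Aldh6a1, a mitochondrial dehydrogenase, lies 558 bases from Lin52.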

How the data were processed

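The submitters' processing notes name Bowtie2, TopHat and mm9. For the ORF caller and its settings, no entry is given in the sources used here. Each ORF has 1 line in the deposited list, with exon blocks, the ORF span and a score assigned by the authors, from 500 to 991. It pools all libraries, so replicates, depth and conditions could not be analysed. ORF positions are those of mm9. The number of value columns left unused was 0.

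Families, main ORFs, leaders and codons (stop excluded) were computed with Python 3.11.15, pandas 2.3.3, NumPy 2.4.6 and SciPy 1.17.1, and figures with matplotlib 3.10.9. The calculation was tested on simulated families. Names matched a RefSeq table directly for 271 members, after a suffix was dropped for 4, through an older name for 20, and not for 1. RefSeq windows (GRCm38.p6) cover 250 bases before to 50 after the gene start and were read for leaders up to 42 bases. Their coordinates were not used.

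Shares carry exact Clopper-Pearson intervals at the 95% level. ORFs are not replicates, so no p-value was computed. Members and gene lists were chosen with earlier results of these data known. Genes were named by rank of score, leader, codons, other ORFs and added leader, up to 6 per list, and up to 15 with the TISU core. Mrps27, Ptcd2, Rpusd4, Fam118b, Aldh6a1, Lin52, Mapkapk2, Mrps18c, Mrps12, Gtpbp4, Oxa1l, Galc, Papd7 and Smpdl3b were chosen after their values were seen, as were head-to-head starts and the codon at the listed start. The codon replaced a planned match to RefSeq proteins, for which no protein table was used here. Sites on chromosome 18 are not printed.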

Additional observations from a re-analysis of the deposited data

How the results depend on the processing

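No value has a replicate, and depth is unknown. No paired analysis was possible because the list has no value per library. Of 76 settings over 10 results, 63 left the value inside the limits set for it and 13 moved it outside. The limits were the counting interval of the main result. The number of members has no interval, so a fixed fold change was used for it. A leader limit of under 10 bases gave 101 members and under 50 bases gave 1137. Under 10 bases, another in-frame start was listed for 31.7% of members, ATG stood at the listed start in 38.8%, and the TISU core followed it in 12.9%. Mitochondrial ribosomal protein genes then gave 1.43%, against 1.14% of all main ORFs, and with leaders under 50 bases 40%, against 12.8%. Choosing each main ORF by its score lowered the in-frame share to 15.2% and raised the median score to 945. With only ORFs scoring 700 or more, the in-frame share was 8.40% and the share with a longer leader on another transcript 9.54%. Requiring the longest listed leader to be under 20 bases left that share at 3.05%. Members scoring 900 or more had ATG at the listed start in 61.7%. Part of these shifts follows from the settings. A floor on the score drops low-scoring inner ORFs, and a limit on the longest leader drops most longer-leader cases. Choosing by score can only raise the main score of a family. Otherwise the cause of these shifts was not tested. Of the 76 settings, 34 were chosen after seeing the data: all for ATG, the TISU core, head-to-head starts and the gene list, and leaders of 1 base or more for the in-frame share and the median score. Comparisons with RefSeq protein length and with RefSeq start codons in the first 50 bases, and their alternatives, were not run because no protein table was used here.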

Other observations

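Several members are known from other bone marrow lineages. Prtn3, a neutrophil granule protease, had a leader of 9 bases, ATG at the listed start and a score of 800. Mcpt8, a basophil protease, had a leader of 10 bases and a score of 789. Cpa3, a mast cell carboxypeptidase, had a leader of 10 bases and a score of 687. These genes were chosen after their values were seen.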
